A study of Mus musculus with 2 samples.

Results

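The miRNAs miR-125 and miR-99/100 were followed in mouse embryonic stem cells between day 0 and day 10 of differentiation as embryoid bodies, which are cell aggregates that form in suspension. Members were every array probe whose name begins with miR-125a, miR-125b, miR-99a, miR-99b or miR-100, whichever arm of the hairpin it targets. This gave 11 of the 1265 mature miRNA probes on the array, 5 for 5p arms and 6 for 3p arms. The cells of both days were the ATCC line CRL-1934 of strain 129S2/SvPas, in medium with fetal bovine serum, nonessential amino acids, L-glutamine and b-mercaptoethanol before their transfer in suspension to dishes of ultra-low attachment. The RNA was labelled with Cy5, and each day was measured on 1 array, with 3 spots per probe. The labels give the day 0 sample as differentiated material of that day and name neither feeder cells nor the number of cultures pooled.

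These miRNAs sit beside let-7 in the genome. A miRNA is cut from a hairpin with a 5p and a 3p arm, of which one is usually kept, and it recognises its targets mainly through the seed, bases 2 to 8 of the mature strand. miR-125 is the vertebrate relative of lin-4, the first miRNA described, which times larval development in the worm Caenorhabditis elegans. In mammals miR-125 and let-7 repress Lin28, an RNA-binding protein of stem cells that blocks let-7 processing, and miR-125b is known from neural and mesenchymal cells. miR-99 and miR-100 are known to repress mTOR, a kinase that controls growth.

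The mature sequences show which members share a seed and how little separates members of one seed. All 11 members had an entry in the RefSeq miRNA table (GRCm38.p6), and each entry was identical to the target sequence printed in the array files. Capitals mark the seed. The first group below carries the miR-125 seed, the second the miR-99/100 seed, and the third holds the 3p arms of miR-99a and miR-99b, which also share one.
mmu-miR-125a-5p: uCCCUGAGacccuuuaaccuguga
mmu-miR-125b-5p: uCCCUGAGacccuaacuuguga
mmu-miR-99a-5p: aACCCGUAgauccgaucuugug
mmu-miR-99b-5p: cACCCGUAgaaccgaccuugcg
mmu-miR-100-5p: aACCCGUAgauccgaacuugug
mmu-miR-99a-3p: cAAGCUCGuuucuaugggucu
mmu-miR-99b-3p: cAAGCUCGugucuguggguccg

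In the pairwise alignment, miR-99a-5p and miR-100-5p differed by 1 mismatch in 22 bases, and each differed from miR-99b-5p by 4. miR-125a-5p, of 24 bases, and miR-125b-5p, of 22, had 21 identical bases, 1 mismatch and 2 gap positions. RNA of one can therefore bind the probe of the other, and the part of such binding in the signals was not tested.

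The members lie in 3 clusters on the plus strand, each with a miR-99/100 gene, a let-7 gene and a miR-125 gene in that order. The cluster of Mir99b, Mirlet7e and Mir125a spans 683 bases on chromosome 17, with miR-99b-5p at chr17:17830194-17830215, miR-99b-3p at chr17:17830232-17830253, miR-125a-5p at chr17:17830817-17830840 and miR-125a-3p at chr17:17830855-17830876. The cluster of Mir100, Mirlet7a-2 and Mir125b-1 spans 50565 bases on chromosome 9, with miR-100-5p at chr9:41531437-41531458. The cluster of Mir99a, Mirlet7c-1 and Mir125b-2 spans 47400 bases on chromosome 16, with miR-99a-5p at chr16:77598940-77598961. The mature miR-125b-5p is the same from Mir125b-1 (chr9:41581940-41581961) and Mir125b-2 (chr16:77646279-77646300), so the array cannot assign it to one gene. Coordinates are those of RefSeq.

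Detection of a probe required a median over its 3 spots above the 95th percentile of the array's 5 blank spots, or 70.0 for the day 0 array and 71.4 for the day 10 array. Day 0 detected 738 probes and day 10 detected 476, with 739 on at least 1 array. Over those 739 the median deposited signal was 189 on day 0 and 97.9 on day 10. The detected miRNA probes were thus dimmer on day 10, with a median log2 difference of -0.77 in deposited signal. The control probes did not dim alike, with medians of -0.25 over 19 spike-in probes and 0.15 over 5 probes of 5S rRNA. The source of the lower miRNA signal was not tested. Levels were quantile normalized between the arrays, after which the median log2 difference of the 739 probes was 0.024. A shift shared by all miRNAs would be removed by this step. Differences are day 10 minus day 0 on the log2 scale of corrected signal plus 50, which understates changes of dim probes. With 1 array per day there was no test, SDs are over the 3 spots of a probe and hold no variation between cultures, and a probe was called where it differed at least 2-fold and the brighter array detected it.

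Of the 11 members, day 0 detected 7 and day 10 detected 4, and none was detected on day 10 alone. Of all 1265 probes, day 0 detected 58.3% and day 10 detected 37.6%, so these counts do not set the members apart. The members on both arrays were miR-125a-5p, miR-125b-5p, miR-99b-5p and miR-99b-3p. Detected on day 0 alone were miR-99a-5p, miR-100-5p and miR-125a-3p, and the 4 other 3p arms were detected on neither day. At the 2-fold size, 2 members were lower on day 10 and none higher. Among all 739 detected probes, 10.4% were lower and 6.77% higher by that rule. The 2 were miR-125b-5p and miR-99b-3p. The 7 detected members had a median difference of -0.59, against 0.024 for all detected probes. That median describes the 7 and supports nothing, because 3 of them entered only through their day 0 signal. With no detection filter, all 11 members had a median of -0.084, which includes 4 probes without a level above the blank spots on either day.

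**Figure D1:**
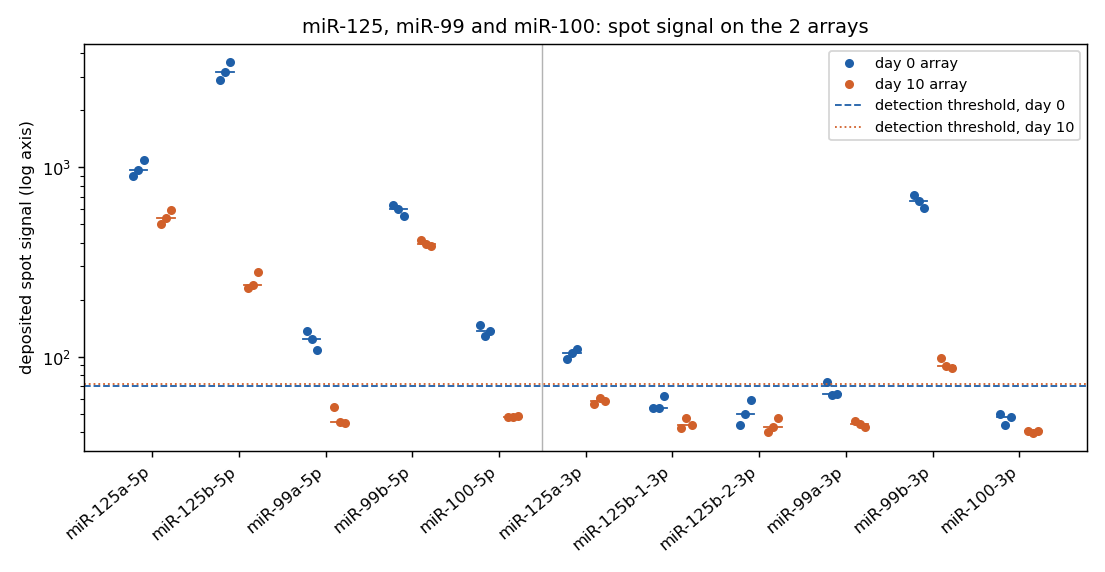
Deposited spot signal (log axis) of the 11 member probes, 5p arms left of the grey line and 3p arms right of it. Each point is 1 of 3 spots, short lines are medians, and dashed and dotted lines are the detection thresholds of 70.0 on day 0 and 71.4 on day 10. miR-125b-5p and miR-99b-3p show the widest gaps between days, while the miR-99a-5p and miR-100-5p spots of day 10 all lie under the threshold.

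The pair with the miR-125 seed moved apart. miR-125b-5p gave spot signals of 2879, 3176 and 3570 on day 0 and of 231, 239 and 279 on day 10. The ratio of the median signals was 13.3, without allowance for the lower miRNA signal on the day 10 array. Median signals over the 739 detected probes were 189 on day 0 and 97.9 on day 10. After normalization miR-125b-5p was 5.89-fold lower on day 10 (log2 difference -2.56, SD 0.050 over 3 spots). This was the lowest difference of the 739 detected probes. The authors' deposited table gives it a processed intensity of 2302 on day 0 and 289 on day 10.

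Its seed partner miR-125a-5p stayed near the bulk of the array. Its spots read 896, 964 and 1088 on day 0 and 502, 540 and 596 on day 10. The normalized difference was 0.27 (SD 0.0093), 1.21-fold higher and short of the 2-fold size. Its sign depended on the scaling, being above 0 in 11 of 15 processing settings and below 0 in 4, namely the deposited signal, no normalization, and scaling on the spike-in probes or on the 5S rRNA probes (-0.97 in the last).

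The contrast inside the pair did not depend on the scaling in this way. The difference of miR-125b-5p was 2.83 below that of miR-125a-5p (SD 0.051 over spots), a 7.13-fold gap on the normalized scale. Over the 15 settings the gap ran from -3.19 with the blank spots subtracted to -2.77 with the 5S rRNA probes set equal. A setting that adds one constant to every difference cannot change it. In both probes the 3 spots ran in the same order on the 2 arrays, so that spot differences taken position by position varied less than the signals did.

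The miR-125 seed occurs in 3 more probes on the array, shown here because they are the other possible readers of the same target sites.
mmu-miR-351-5p: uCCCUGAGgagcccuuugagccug
mmu-miR-6367: uCCCUGAGacccugguucagga
mmu-miR-6394: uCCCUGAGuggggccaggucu

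miR-351-5p, of an X-linked gene, read 168, 180 and 183 on day 0 and 93.2, 103 and 100 on day 10, a normalized difference of 0.097 (SD 0.049). miR-6394 differed by 0.41 (SD 0.13), and miR-6367 was detected on neither day. Of the 5 probes with this seed, only miR-125b-5p reached the 2-fold size.

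In the miR-99/100 seed group, the detected day 10 signal came from miR-99b-5p alone. Its spots read 635, 602 and 550 on day 0 and 411, 392 and 384 on day 10, and it differed by 0.52 after normalization (SD 0.069), 1.44-fold higher and short of the 2-fold size. As for miR-125a-5p, the sign was above 0 in 11 of 15 settings and below 0 in the 4 that leave the arrays unnormalized or set control probes equal, down to -0.70 with the 5S rRNA probes.

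miR-99a-5p and miR-100-5p were dim on day 0 and under the threshold on day 10. miR-100-5p read 147, 128 and 137 on day 0 and 48.2, 48.1 and 48.9 on day 10, and miR-99a-5p read 137, 124 and 108 against 54.3, 45.1 and 44.8. The day 10 spots of both probes were not well above background. The normalized differences were -0.70 (SD 0.079) and -0.59 (SD 0.099). Because day 10 did not detect them, the fold can only be bounded, against the dimmest probe that day 10 detected. On the quantile-normalized levels the bounds were at least 1.10-fold lower for miR-100-5p and at least 1.01-fold lower for miR-99a-5p. These bounds hold for that scaling only. Each difference was below 0 in 14 of 15 settings and above 0 with 75th percentile scaling, at 0.0041 for miR-100-5p and 0.14 for miR-99a-5p. The lowest values, with the blank spots subtracted, were -3.29 for miR-100-5p and -2.41 for miR-99a-5p. Differences of -1 or lower came in 5 of the 15 settings for miR-100-5p and in 4 for miR-99a-5p.

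The arms of the Mir99b hairpin also moved apart. miR-99b-3p read 718, 665 and 608 on day 0 and 98.9, 89.8 and 87.3 on day 10, just over the threshold of 71.4. It was 3.23-fold lower after normalization (-1.69, SD 0.041), while miR-99b-5p from the same hairpin was above 0 on that scale. In 4 of 15 settings miR-99b-5p was below 0 as well, as given. The gap between the arms was -2.21 (SD 0.080), or 4.64-fold, and ran from -3.48 with the blank spots subtracted to -2.06 with cyclic loess. In the authors' deposited table, which holds processed intensities, miR-99b-3p stood at 398 on day 0 and 78.0 on day 10, and miR-99b-5p at 369 and 513. Over the 3 spots, normalized differences ran from -1.74 to -1.66 for miR-99b-3p and from 0.47 to 0.60 for miR-99b-5p. That spread is technical only. Such a split was not particular to Mir99b. miR-15a-3p differed by -1.64 and miR-15a-5p by 1.14, and miR-195a-3p differed by -1.88 and miR-195a-5p by 0.82. How many hairpins on the array split in this way was not counted.

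The other member hairpins allowed no such comparison of arms. miR-125a-3p read 97.4, 104 and 110 on day 0 and 56.3, 60.8 and 58.2 on day 10, and differed by -0.084 (SD 0.066). Day 10 did not detect it, so the gap between its arms has no measured value. The 3p arms miR-125b-1-3p, miR-125b-2-3p, miR-99a-3p and miR-100-3p had median signals between 48.2 and 63.5 on day 0 and between 40.7 and 44.1 on day 10, under the thresholds. So no 3p arm above the blank spots could tell the Mir125b-1 and Mir125b-2 hairpins apart.

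**Figure D2:**
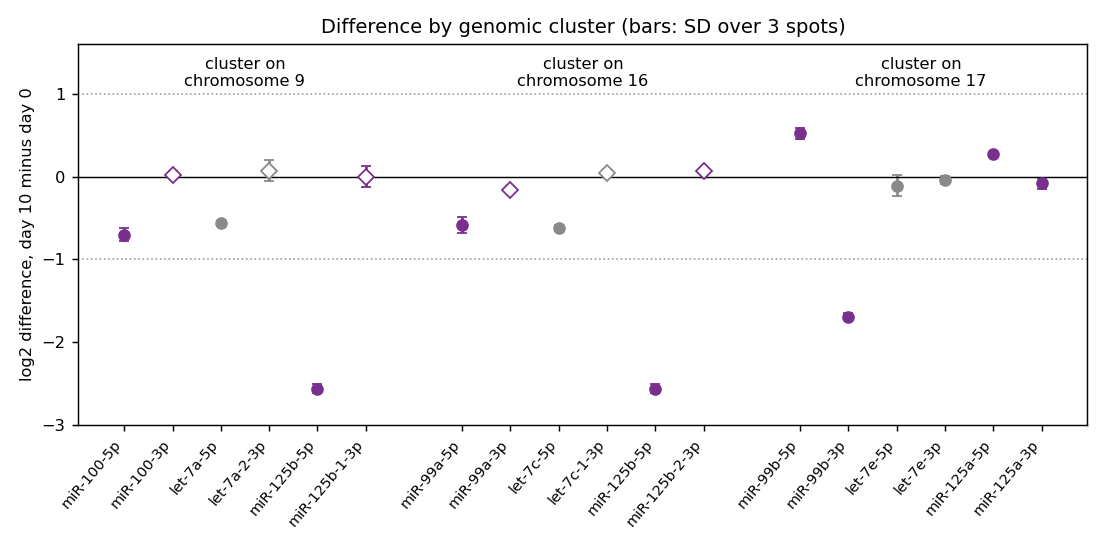
Log2 difference (day 10 minus day 0) of member arms (purple) and let-7 arms (grey), set out by cluster, with bars for the SD over 3 spots. Filled circles were detected on at least 1 array, open diamonds on neither, and dotted lines mark 2-fold. miR-125b-5p is drawn in the chromosome 9 and 16 clusters because both encode it, and let-7a-5p and let-7c-5p have further genes elsewhere.

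Set out by cluster, only the chromosome 17 cluster had member arms detected on both days other than miR-125b-5p, which the other 2 clusters share. Their remaining 5p arms, miR-100-5p and miR-99a-5p, were under the threshold on day 10, so the clusters cannot be compared member by member. The let-7 genes inside the clusters had 6 probes, of which 4 were detected and 3 on both days, and none reached the 2-fold size. let-7a-5p differed by -0.56 (SD 0.026) and let-7c-5p by -0.62 (SD 0.036). let-7e-5p, of the chromosome 17 cluster, differed by -0.11 (SD 0.13), less than its own spread. let-7a-5p and let-7c-5p also come from genes outside these clusters, and let-7 5p arms are close in sequence.

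The miR-10 arms, of the nearest relatives of miR-99/100, stayed dim. Only miR-10a-5p and miR-10b-5p were detected, on day 0, and their differences of -0.085 (SD 0.13) and -0.053 (SD 0.047) did not reach 2-fold.

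**Figure D3:**
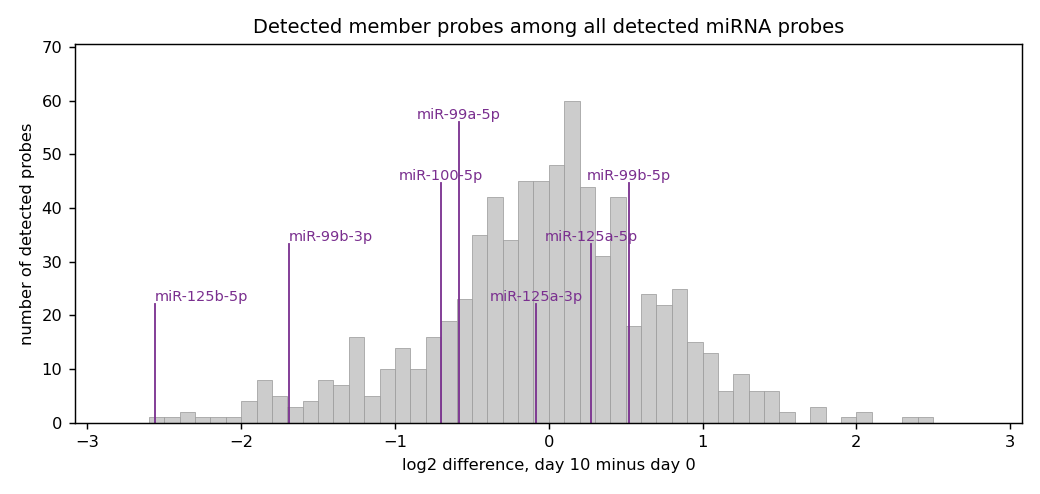
Histogram of the log2 differences (day 10 minus day 0) of the 739 detected probes, in steps of 0.1, with the 7 detected members marked by purple lines. miR-125b-5p lies at the left end, miR-99b-3p in the left tail at -1.69, and the other 5 between -0.70 and 0.52.

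Among the 343 other probes that reached the median level of detected probes on their brighter array, the differences closest to that of miR-125b-5p were those of miR-6347 (-2.41, SD 0.26) and miR-199a-3p (-2.38, SD 0.17). The probe of miR-199a-3p, a miRNA of mesenchymal cells, also matches miR-199b-3p. Closest to miR-125a-5p were miR-149-3p and miR-23b-3p, each at 0.28, and closest to miR-99b-5p were miR-714 (0.52) and miR-34c-3p (0.53). None is named for miR-99a-5p and miR-100-5p, whose differences are only bounded. Likeness here is over 1 difference between 2 arrays.

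Marker miRNAs of other cell types were read beside these results. Of 22 probes for miRNAs of fibroblasts and mesenchyme, 16 were detected on day 0 and 10 on day 10. Of the 10 detected on both days, 6 were at least 2-fold lower on day 10 and none higher, with a median difference of -1.21. Among all 475 probes detected on both arrays, 12.8% were lower and 10.5% higher by that rule, with a median of 0.22. Over all 22 probes the summed deposited signal was 15589 on day 0 and 3180 on day 10. These sums make no allowance for the lower miRNA signal on the day 10 array. The part of these markers in the values of miR-125b-5p and miR-99b-3p was not tested. In bulk RNA, fewer cells of a type and less of a miRNA per cell cannot be told apart.

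miRNAs of embryonic stem cells (the miR-290 and miR-302 clusters) were detected for 17 of 24 probes on each day. Deposited signal summed over the 24 was 82915 on day 0 and 67479 on day 10, again without allowance for the lower miRNA signal on day 10. After normalization the detected 17 had a median difference of 0.38. Of those 17, all detected on both days, 4 were at least 2-fold higher on day 10 and none lower. The 4 were miR-302a-3p (2.05), miR-302b-3p (1.74), miR-302d-3p (2.48) and miR-293-5p (1.31). No other probe of the miR-290 cluster reached 2-fold, and only miR-367-5p, of the miR-302 cluster, was below 0 (-0.63). The shares of all probes detected on both arrays were 10.5% higher and 12.8% lower. Neural markers had 5 of 15 probes detected on each day, blood markers 4 of 9 on day 0 and 1 on day 10, and endothelial markers 1 of 2 on each day, none of them past 2-fold. Muscle and heart markers had 3 of 15 detected on each day, of which miR-206-3p of skeletal muscle was lower by the 2-fold rule (-1.12, SD 0.14). The others detected, miR-208a-5p and miR-499-5p, differed by 0.54 and -0.0097. The miR-1a, miR-133a and miR-133b probes were detected on neither day. The part of miR-206-3p in the members' values was not tested either.

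**Figure D4:**
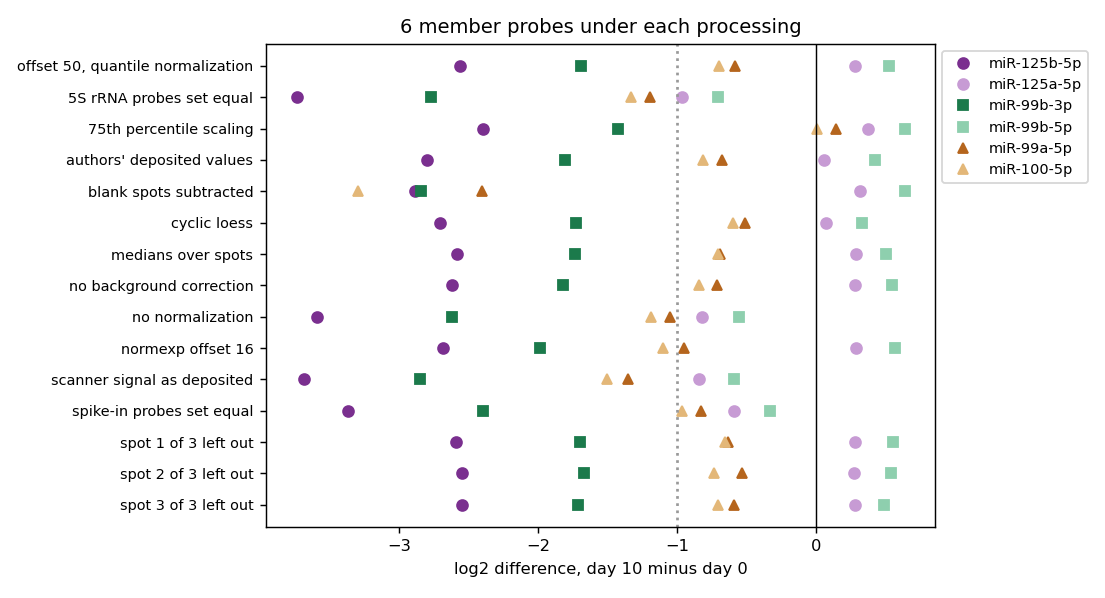
Log2 difference (day 10 minus day 0) of 6 member probes under 15 processing settings, with the dotted line at -1. miR-125b-5p runs from -3.73 to -2.40 and miR-99b-3p from -2.85 to -1.43, while miR-125a-5p and miR-99b-5p lie on either side of 0 depending on the scaling between arrays. miR-99a-5p and miR-100-5p were under the detection threshold on day 10, and both were above 0 with 75th percentile scaling alone.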

How the data were processed

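Mature miRNAs of miRBase release 19 were measured on 1 single-colour Cy5 array for day 0 and 1 for day 10, per the labels. The scanner files hold the spot intensity as a linear median density, per the file headers, with no background column. A further table holds the authors' deposited processed intensity per probe, for which background subtraction and scaling were not stated (not given in the sources used here).

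Signals were corrected with normexp (limma 3.58.1, R 4.3.3, offset 50, all spots), log2 transformed, stripped of control spots and quantile normalized. A level is the mean over 3 spots, and an SD is that of the spot differences taken position by position. The number of arrays limits the precision. With 1 array per day no test was run. Named probes were the members, other probes with a 5p member's seed, let-7 arms, miR-10 arms, and the 2 probes of closest difference for each 5p member, given where both days detected it. The let-7 list also held let-7a-1-3p, whose gene lies outside the 3 clusters, and it was left out of their count. The members and lists, and the contrasts between members, were chosen with earlier results of these data known. The procedure was run on simulated arrays with changes set only in bright probes. That run does not cover dim members such as miR-99a-5p, miR-100-5p and miR-125a-3p. Alternatives were other background corrections, scalings, spot summaries, detection filters and the authors' values.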

Additional observations from a re-analysis of the deposited data

How the results depend on the processing

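No paired analysis was possible because there was a single array for day 0 and for day 10. miR-125b-5p and miR-99b-3p were at least 2-fold lower in all 15 settings that recompute the values, and no detected member was 2-fold higher in any of them. The settings are not independent checks. All reuse the same arrays, and several differ only by a constant shift or by a spot left out. The number of members 2-fold lower, 2 as reported, was 4 without normalization, with scaling on the 5S rRNA probes and in the deposited signal without correction (a setting chosen after seeing the data), where miR-99a-5p and miR-100-5p joined. It was 5 with the blank spots subtracted, 3 with an offset of 16 and 1 at 4-fold. In these settings the shares of all probes that were lower were 31.4%, 36.1%, 37.9%, 40.6%, 14.2% and 0.947%. The median of the detected members, -0.59 as reported, was -1.20 with scaling on the 5S rRNA probes, -0.83 with scaling on the spike-in probes, -1.05 without normalization, -1.35 in the deposited signal, 0.14 with 75th percentile scaling, -0.51 with cyclic loess, -0.68 in the authors' values, -2.41 with the blank spots subtracted, -0.95 with an offset of 16, -0.72 with no background correction, -0.69 with medians over spots, -0.71 over the 4 members detected on both arrays or past a doubled threshold, and -0.084 with no detection filter. The median of all detected probes moved with the scaling too, from 0.024 to -0.77 with the 5S rRNA probes set equal, -0.40 with the spike-in probes, -0.63 without normalization and 0.57 with 75th percentile scaling. Causes of these shifts were not tested otherwise. Leaving out any of the 3 spots gave medians between -0.63 and -0.53. Signal over background limits miR-99a-5p, miR-100-5p and the 3p arms other than miR-99b-3p.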
